A study of Mus musculus with 12 samples.

Results

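The annexins are a family of calcium-dependent phospholipid-binding proteins, and S100A10 is the small S100 protein that joins annexin A2 at the plasma membrane. Transcript levels of 9 annexin genes (Anxa1, Anxa2, Anxa3, Anxa4, Anxa5, Anxa6, Anxa7, Anxa8 and Anxa11) and of S100a10 are described here across 4 conditions of adipogenic induction. These 10 genes were taken by name from the 39423 genes of the deposited tables, and they were chosen by family with their levels in the 4 conditions already known. Their calls are therefore a description of where each gene stood, and no p-value is given for any of them. The other gene lists below were also chosen with earlier results of these data known. The adjusted p-values printed for their genes are descriptions too.

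The data are 12 mRNA libraries of 3T3-L1 cells, a mouse preadipocyte line of fibroblast shape that fills with lipid droplets when it is induced with DMI, a cocktail of dexamethasone, 3-isobutyl-1-methylxanthine and insulin (the labels write MDI). Cells were transfected with a negative control siRNA, called siCtrl, or with siPRMT1, which targets Prmt1, the gene of a protein arginine methyltransferase, and were taken after 24 h (day 1) or 72 h (day 3) of DMI, with 3 libraries in each of the 4 groups. All 12 libraries thus share the cell line, transfection and the induction cocktail, and uninduced cells were not analysed here. The study's text does not name which of its PRMT1 siRNAs was sequenced, and the labels do not say whether libraries came from separate cultures, so the spread given below is the spread between these libraries only.

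The 12 libraries held 15116462 to 42357137 counts on genes. Prmt1 itself was lower in siPRMT1 than in siCtrl cells, with a log2 fold change of -1.106 at day 1 and -0.88 at day 3, and all siPRMT1 libraries were below all siCtrl libraries of the same day. Preadipocyte markers were present in all libraries, though Cd34, 1 of the 8 listed, was low, at group means of 0.10 to 0.60 FPKM. Adipocyte markers rose between the days. Each of the 4 lists of macrophage, endothelial, epithelial and muscle markers, taken singly, summed to at most 6.57 FPKM in any library. A single library stood apart. The chi-square per gene between siCtrl replicate 3 at day 1 and the other replicates of its group was 30.8 or more, whereas no other pair of replicates exceeded 15.8. Log2 fold changes of the 10 members that use that library are given with and without it, and that of Prmt1 at day 1 was -1.07 without it.

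Annexins bind negatively charged phospholipids through repeated calcium-binding domains, and they act in vesicle traffic, in links between membrane and actin, in repair of the torn plasma membrane and outside the cell. Annexin A2 and S100A10 form a heterotetramer that binds tissue plasminogen activator and plasminogen at the cell surface, and S100A10, unlike most S100 proteins, does not need calcium to bind its partner. Annexin A1 was first known as a glucocorticoid-induced inhibitor of phospholipase A2, and a glucocorticoid, dexamethasone, is part of DMI at both days. Annexin A5 is the protein used to stain phosphatidylserine on dying cells, and annexin A6 is the member with more core repeats than the others.

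On GRCm38, Anxa2 (gene ID 12306) lay on the plus strand at chr9:69453683-69491792 and S100a10 (20194) on the plus strand at chr3:93555068-93564645. Anxa1 (16952) lay on the minus strand at chr19:20373434-20390671, Anxa3 (11745) on the plus strand at chr5:96793385-96845968 and Anxa4 (11746) on the minus strand at chr6:86736840-86793593. Anxa5 (11747) lay at chr3:36448923-36475887 and Anxa6 (11749) at chr11:54978962-55033473, both on the minus strand. The remaining 3 shared chromosome 14: Anxa7 (11750) at chr14:20455261-20480133 on the minus strand, and Anxa8 (11752) at chr14:34085979-34100571 and Anxa11 (11744) at chr14:25842149-25886804 on the plus strand. None of the 10 had an exon that overlapped another gene of the table. Between annotated transcripts of different members the longest identical stretch ran from 13 to 30 bases, with the longest between Anxa3 and Anxa4, so the members' transcripts are distinct over nearly all of their length.

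Promoters of 3 members are shown, since the results below turn on them. Anxa2 had the largest difference between siPRMT1 and siCtrl at day 1, and Anxa8 the largest difference between the days. The knockdown difference of Anxa1 changed sign between the days, as did those of Anxa3, Anxa4, S100a10 and Anxa5 (0.031 at day 3). Each run is the 250 bases before the transcription start of the RefSeq entry on GRCm38, 5′ to 3′ on the gene's strand, at chr9:69453433-69453682 (plus) for Anxa2, chr14:34085729-34085978 (plus) for Anxa8 and chr19:20390672-20390921 (minus) for Anxa1. Capitals mark matches on either strand to the TATA box (TATAAA), the AP-1 site (TGANTCA), the GC box (GGGCGG), the CCAAT box (CCAAT), the glucocorticoid receptor half-site (AGAACA) or the CRE half-site (TGACG).
Anxa2: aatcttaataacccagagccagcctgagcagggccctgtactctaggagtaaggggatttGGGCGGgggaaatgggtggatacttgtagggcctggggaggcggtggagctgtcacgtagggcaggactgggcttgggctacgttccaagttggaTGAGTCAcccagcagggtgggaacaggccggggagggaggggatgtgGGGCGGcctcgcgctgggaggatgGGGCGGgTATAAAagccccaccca
Anxa8: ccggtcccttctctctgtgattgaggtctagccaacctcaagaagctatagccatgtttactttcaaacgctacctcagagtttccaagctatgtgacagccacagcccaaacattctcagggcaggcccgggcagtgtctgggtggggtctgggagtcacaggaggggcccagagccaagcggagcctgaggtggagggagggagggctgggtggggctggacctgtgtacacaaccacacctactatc
Anxa1: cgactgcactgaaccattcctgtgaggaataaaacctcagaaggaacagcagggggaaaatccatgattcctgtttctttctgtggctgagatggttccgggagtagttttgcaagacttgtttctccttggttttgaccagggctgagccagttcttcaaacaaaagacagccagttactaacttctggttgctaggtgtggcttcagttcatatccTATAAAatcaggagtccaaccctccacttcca
In the Anxa2 promoter a TATA box began 17 bases before the start, GC boxes at 24, 48 and 190 bases and an AP-1 site at 95 bases before it. The Anxa1 promoter held a TATA box 32 bases before its start and no other match, and none of the 6 motifs was found in the Anxa8 window. No 2 matches overlapped. Of 32851 mouse promoters of the same length, 12.4% held the TATA box, 6.75% the AP-1 site, 32.7% the GC box, 33.8% the CCAAT box, 16.1% the glucocorticoid receptor half-site and 17.8% the CRE half-site. RefSeq promoters were found for 7 of the 10 members, that is, not for S100a10, Anxa3 or Anxa6. These matches describe letters in a window and no binding was measured.

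Levels are given as FPKM, the deposited counts scaled to listed gene length and library total, which allows genes to be compared. In siCtrl cells at day 1, S100a10 was the most abundant of the 10 at 679.9 ± 56.5 FPKM (SD, n = 3), rank 38 of all genes, followed by Anxa2 at 473 ± 17.1 and Anxa1 at 217 ± 16.2. Anxa6 and Anxa4, at 102 and 98.8 FPKM, overlapped between libraries, as did Anxa8 and Anxa5 at 83.8 and 81.6. Anxa7, Anxa3 and Anxa11 closed the order at 34.8, 23.0 and 9.05 FPKM, each apart from its neighbour. The family thus covered a wide range of levels in the same cells, from genes among the most abundant of all to Anxa11, whose lowest count in any library was 414. In bulk libraries, fewer cells with a transcript and less transcript per cell cannot be told apart.

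At day 3 of siCtrl the order had changed. S100a10 still led at 405 ± 13.4 FPKM, but Anxa8, below Anxa4 at day 1, had moved up to 303 ± 7.25 and its libraries overlapped those of Anxa2 at 334 ± 46.4. Anxa1 and Anxa6 overlapped, both at a mean of 155 FPKM, as did Anxa11 and Anxa3 at the bottom, at 12.2 and 12.02. In siPRMT1 cells at day 1 the order was that of siCtrl except that Anxa5 stood above Anxa8, and the only neighbours whose libraries overlapped were Anxa6 and Anxa4. In siPRMT1 cells at day 3, Anxa3 stayed above Anxa11 and Anxa8 overlapped with Anxa1.

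**Figure D1:**
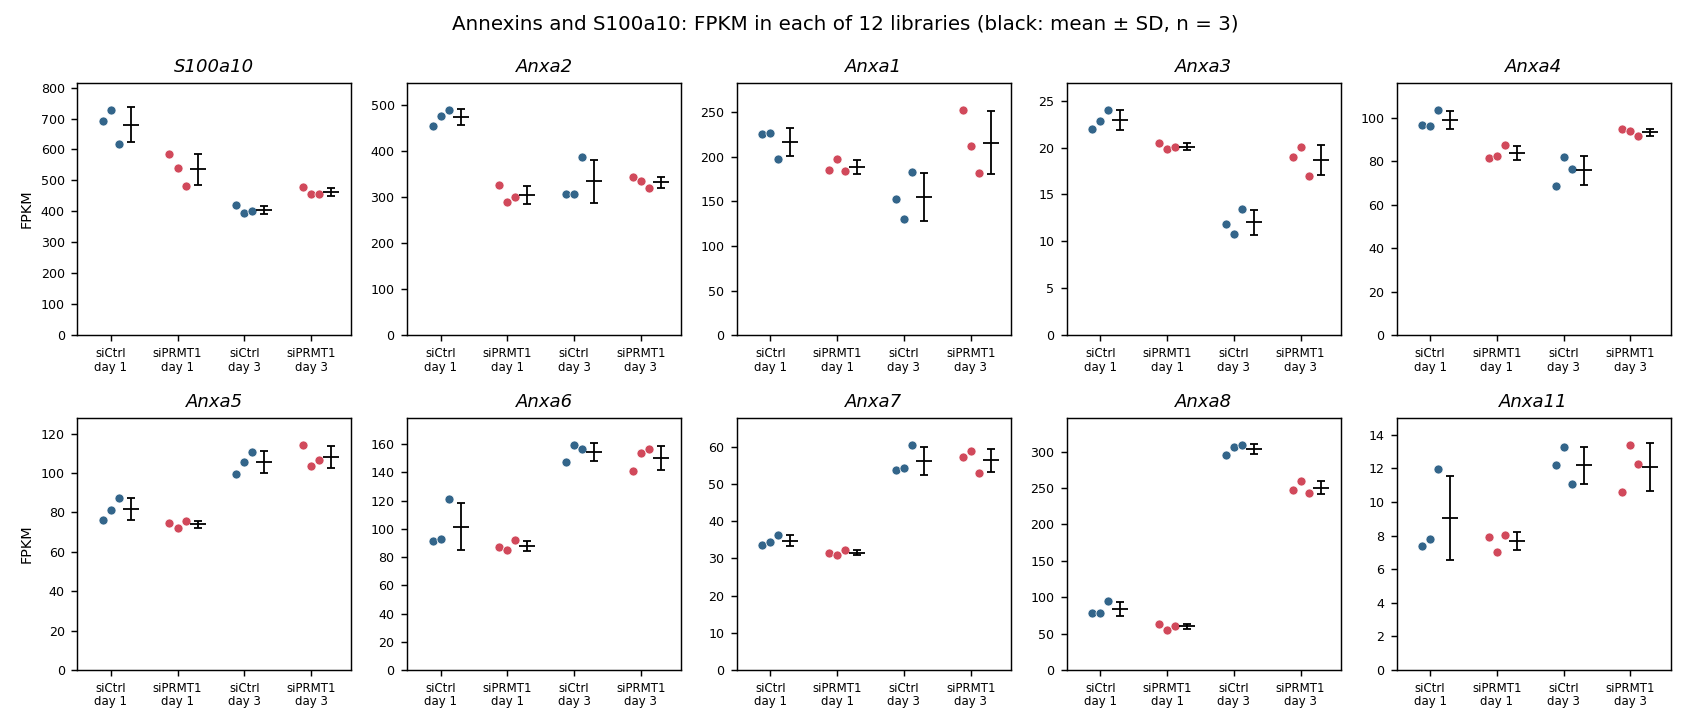
FPKM of S100a10 and 9 annexins in each of 12 libraries (points; blue siCtrl, red siPRMT1) at day 1 and day 3, with the mean and SD of 3 libraries in black and each y axis from 0. S100a10, Anxa2, Anxa1, Anxa3 and Anxa4 fall between the days in siCtrl by mean, while Anxa8 goes from 83.8 to 303 FPKM.

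The table held 3 further annexins. Anxa9 was low, at group means of 1.22 to 1.94 FPKM, and was called higher at day 3 than at day 1 in siCtrl cells, at 0.62 (edgeR's adjusted p = 0.027). That call was lost in 4 of the 6 fits with 1 library left out, without siCtrl replicate 1 of day 1 (0.44) or any siCtrl library of day 3 (0.55, 0.57 and 0.60). Anxa10 and Anxa13 had 0 counts in all 12 libraries, which allows up to 3 counts in each (counting error only).

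The comparison of siPRMT1 with siCtrl cells at day 1 asks what PRMT1 depletion does early in induction. All 10 members had a negative log2 fold change, with a median of -0.27 beside 0.0096 over all 13689 genes tested. Negative values were not particular to the members. Of 10 other S100 genes tested, 9 were negative and 1 positive (median -0.35), and 6 of 6 adipocyte markers tested were negative (median -0.70). Of 8 plasminogen system genes tested, 4 were negative and 4 positive. A gene was called when the adjusted p of edgeR's quasi-likelihood test was under 0.05 and the absolute log2 fold change over 0.5. By this rule 2 of the 10, Anxa2 and Anxa8, were called lower and 0 higher, where 1.61% of all genes were called lower and 1.95% higher. By unadjusted p alone, 0 members had a positive and 9 a negative value under the same 0.05. The share of all genes at that unadjusted threshold was not computed, so this count has no background to be read against. DESeq2 also called 2 members lower and 0 higher. Of the genes called at this day 54.8% were higher, and 68.6% with counts scaled by library totals in place of TMM. For 8 of the 10 all siPRMT1 libraries were below all siCtrl libraries in FPKM, which held for 11.9% of all genes, and for 0 every library lay above, which held for 19.8%. Without siCtrl replicate 3, so with 3 against 2 libraries, the same 8 genes were below and 0 above, where 19.5% of all 13949 genes then tested were below and 35.0% above. That fit called 1 member lower, Anxa2, beside 2.65% of all genes called lower and 3.61% higher.

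Anxa2 was at 455, 474 and 489 FPKM in siCtrl replicates 1 to 3 and at 325, 288 and 299 FPKM in siPRMT1. The lowest siCtrl library thus stood well above the highest siPRMT1 library. Its log2 fold change was -0.69 (SE 0.063, 95% interval -0.83 to -0.54), or 0.621 of the siCtrl level, and -0.67 without siCtrl replicate 3. S100a10, its partner, was at 694, 728 and 618 FPKM in siCtrl and 584, 539 and 483 in siPRMT1. These ranges were also apart, although replicate 3 was the lowest of both groups, and the log2 fold change of S100a10 was -0.39 (SE 0.094, 95% interval -0.61 to -0.18), inside the fold threshold, and -0.47 without siCtrl replicate 3.

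Anxa8 encodes an annexin described as an anticoagulant protein. At day 1 it was at 78.4, 78.0 and 95.1 FPKM in siCtrl and 63.2, 55.6 and 61.0 in siPRMT1, with siCtrl replicate 3 the highest of the 6. Its log2 fold change was -0.53 (SE 0.092, 95% interval -0.74 to -0.32), and it was -0.44 and not called without siCtrl replicate 3. The call was also lost without siCtrl replicate 2 (-0.58) and without siPRMT1 replicate 1 (-0.60), replicate 2 (-0.50) or replicate 3 (-0.55), so that it held in 1 of the 6 fits with 1 library left out, against 6 of 6 for Anxa2. With counts scaled by library totals the value was -0.48, also not called.

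The other members had smaller differences at day 1. Anxa1 was at 225, 227 and 198 FPKM in siCtrl and 185, 197 and 184 in siPRMT1, a log2 fold change of -0.25 (SE 0.076, 95% interval -0.43 to -0.077) and of -0.32 without siCtrl replicate 3. Anxa3 was at 22.0, 22.9 and 24.0 and 20.5, 19.8 and 20.1, a log2 fold change of -0.24 (SE 0.073, 95% interval -0.41 to -0.073) and of -0.21 without it. Anxa4 was at 96.8, 96.0 and 104 and 81.5, 82.1 and 87.6, a log2 fold change of -0.29 (SE 0.060, 95% interval -0.43 to -0.15) and of -0.26 without it. In these 3 genes the ranges were apart by a narrow gap. The log2 fold changes of Anxa5 and Anxa7, an annexin that fuses membranes in secretion, were -0.19 and -0.19, also with ranges apart, and -0.14 and -0.16 without siCtrl replicate 3. Anxa6 (-0.26) and Anxa11 (-0.28) overlapped between the groups, and siCtrl replicate 3 held 121 FPKM of Anxa6 and 11.95 FPKM of Anxa11, the highest of the group. Without that library the log2 fold change was -0.12 for Anxa6 and -0.042 for Anxa11, and those of the 10 members ran from -0.67 to -0.042. The share of all genes called in either direction rose to 6.26% in the same fit.

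**Figure D2:**
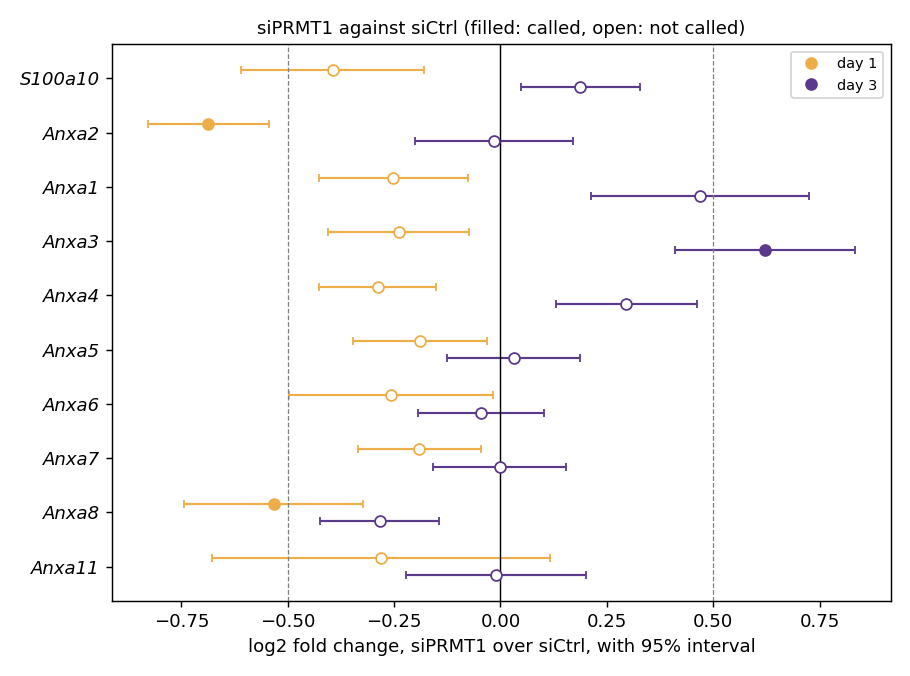
Log2 fold change of siPRMT1 over siCtrl for the 10 genes at day 1 (yellow) and day 3 (purple), with 95% intervals; filled points passed the call and dashed lines mark 0.5 and -0.5. All day 1 points lie left of 0, while at day 3 Anxa1, Anxa3, Anxa4 and S100a10 lie right of 0 with their whole intervals.

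At day 3 the members were no longer on the same side of 0. Positive and negative log2 fold changes were found in 5 members each, with a median of 0.015 beside 0.0073 over all 14039 genes tested. Anxa3 was called higher and 0 members were called lower, where 2.84% of all genes were called higher and 3.80% lower. By unadjusted p alone, 4 members had a positive and 1 a negative value under the same 0.05, again without a computed share of all genes. DESeq2 also called 1 member higher and 0 lower. In FPKM, every siPRMT1 library lay above every siCtrl library for 3 members (Anxa3, Anxa4 and S100a10), which held for 16.7% of all genes, and below for 1 (Anxa8), which held for 17.5%.

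Anxa3 was at 11.8, 10.8 and 13.5 FPKM in siCtrl and at 19.0, 20.1 and 16.9 in siPRMT1 at day 3. The groups were apart, with a log2 fold change of 0.62 (SE 0.10, 95% interval 0.41 to 0.83), or 1.54 times the siCtrl level, and the call held with each library left out. Anxa1 was at 153, 129.7 and 183 FPKM in siCtrl and 253, 213 and 182 in siPRMT1. Both groups were spread widely and touched, with siCtrl replicate 3 above siPRMT1 replicate 3. Its log2 fold change was 0.47 (SE 0.12, 95% interval 0.21 to 0.72), short of the fold threshold, and it was called at 0.61 without siCtrl replicate 3 and at 0.57 without siPRMT1 replicate 3.

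Anxa4, an annexin of secretory epithelia, was at 68.5, 82.1 and 76.5 FPKM in siCtrl and 94.8, 93.6 and 91.6 in siPRMT1 at day 3. The log2 fold change was 0.30 (SE 0.078, 95% interval 0.13 to 0.46). S100a10 was at 419, 393 and 402 FPKM in siCtrl and 479, 455 and 455 in siPRMT1, a log2 fold change of 0.19 (SE 0.065, 95% interval 0.049 to 0.33). In both genes the groups were apart, with siPRMT1 the higher. Anxa2 was at 307, 307 and 387 FPKM in siCtrl and 343, 333 and 318 in siPRMT1, with siCtrl replicate 3 the highest of the 6. The groups overlapped and the log2 fold change of Anxa2 was -0.015 (SE 0.087, 95% interval -0.20 to 0.17), while without siCtrl replicate 3 it was 0.10.

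Anxa8 was the only member whose siPRMT1 libraries all lay below siCtrl at day 3, at 248, 260.0 and 243 FPKM against 295, 306 and 309. Its log2 fold change was -0.28 (SE 0.066, 95% interval -0.42 to -0.14), inside the fold threshold. Anxa5, Anxa6, Anxa7 and Anxa11 overlapped between the groups. Their log2 fold changes were 0.031, -0.046, -0.0013 and -0.011, and their 95% intervals reached no further than -0.22 (Anxa11) and 0.20 (Anxa11), so differences past the fold threshold lay outside them.

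The change from day 1 to day 3 was read in siCtrl cells first, as the course of induction without knockdown. The siCtrl libraries of both days also served as controls above, so these values and the knockdown values share libraries. In siCtrl cells the family split: Anxa6, Anxa7 and Anxa8 were called higher at day 3 and Anxa1, Anxa2, Anxa3 and S100a10 lower. These are 3 and 4 of the 10, where 22.7% of all 13829 genes tested were called higher and 20.4% lower. The median of the 10 log2 fold changes was -0.077, beside -0.0042 over all genes. In FPKM, all day 3 libraries lay above all day 1 libraries for 4 members, which held for 36.9% of all genes, and below for 5, which held for 27.4%.

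Among the genes that were lower at day 3 in siCtrl, Anxa3 had a log2 fold change of -0.999 (SE 0.11, 95% interval -1.25 to -0.75), from 23.0 ± 1.03 to 12.02 ± 1.37 FPKM (SD, n = 3). S100a10 followed at -0.82 (SE 0.078, 95% interval -0.99 to -0.64) and Anxa2 at -0.57 (SE 0.10, 95% interval -0.79 to -0.35), so both partners of the heterotetramer were lower. Anxa1 stood at -0.55 (SE 0.12, 95% interval -0.81 to -0.29). The call of Anxa1 was lost without siCtrl replicate 2 of day 3 (-0.50) and with counts scaled by library totals (-0.48). Anxa4 was at -0.45 (SE 0.090, 95% interval -0.66 to -0.25), short of the call, with all day 3 libraries below those of day 1, and it was called without siCtrl replicate 2 (-0.57) or replicate 3 (-0.51) of day 3.

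Among the genes that were higher, Anxa8 stood far from the rest. It went from 83.8 ± 9.74 to 303 ± 7.25 FPKM (SD, n = 3). The log2 fold change fitted on TMM-scaled counts was 1.79 (SE 0.10, 95% interval 1.57 to 1.998), or 3.45 times the day 1 level. Anxa7 lay within 33.7 to 36.4 FPKM at day 1 and 53.7 to 60.5 at day 3, a log2 fold change of 0.62 (SE 0.085). Anxa6 lay within 91.1 to 121 and 148 to 159.6 FPKM, a log2 fold change of 0.53 (SE 0.11). The call of Anxa6 was lost in 4 of the 6 fits with 1 library left out: without siCtrl replicate 1 (0.44) or 2 (0.45) of day 1 and without replicate 2 (0.45) or 3 (0.48) of day 3. Anxa5 was at 0.30 with ranges apart, and Anxa11 at 0.36 with ranges that overlapped. Without siCtrl replicate 3 of day 1, Anxa11 was called at 0.60 and Anxa8 was at 1.88. In the same fit Anxa6 was at 0.67, Anxa7 at 0.65, Anxa5 at 0.35, S100a10 at -0.89, Anxa3 at -0.97, Anxa1 at -0.61, Anxa2 at -0.55 and Anxa4 at -0.42. It called 4 members higher and 4 lower, where 24.2% of all 14175 genes then tested were called higher and 22.6% lower. The FPKM ranges, of 3 against 2 libraries, were apart for all 10, 5 above and 5 below, where 43.0% of all genes were above and 34.9% below.

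In siPRMT1 cells the same days gave another picture, with 5 members called higher at day 3 (Anxa5, Anxa6, Anxa7, Anxa8 and Anxa11) and 0 lower, where 19.0% of all 14224 genes tested were called higher and 17.4% lower. By unadjusted p alone, 6 members had a positive and 1 a negative value under the same 0.05, again without a computed share of all genes. DESeq2 called as many members in each direction as edgeR. The median log2 fold change of the 10 was 0.36, beside 0.0022 over all genes. All day 3 libraries lay above all day 1 libraries for 6 members, which held for 34.4% of all genes, and below for 1 (S100a10), which held for 31.8%. Anxa8 again had the largest value, 2.05 (SE 0.063, 95% interval 1.91 to 2.18), or 4.14 times its day 1 level. Anxa7 was at 0.82, Anxa6 at 0.76, Anxa11 at 0.65 and Anxa5 at 0.53. The call of Anxa5 was lost without siPRMT1 replicate 1 of day 3 (0.49).

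The genes that were lower in siCtrl cells at day 3 had values closer to 0 in siPRMT1 cells. Anxa2 was at 0.11 (SE 0.061, 95% interval -0.019 to 0.24), Anxa1 at 0.18 (SE 0.10, 95% interval -0.024 to 0.39) and Anxa3 at -0.12 (SE 0.077, 95% interval -0.29 to 0.046). In these 3 the libraries of the days overlapped and the intervals spanned 0. Anxa4 was at 0.14 and S100a10 at -0.22, with ranges apart in opposite directions. At day 1 the siPRMT1 libraries of these 5 genes all lay below siCtrl.

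**Figure D3:**
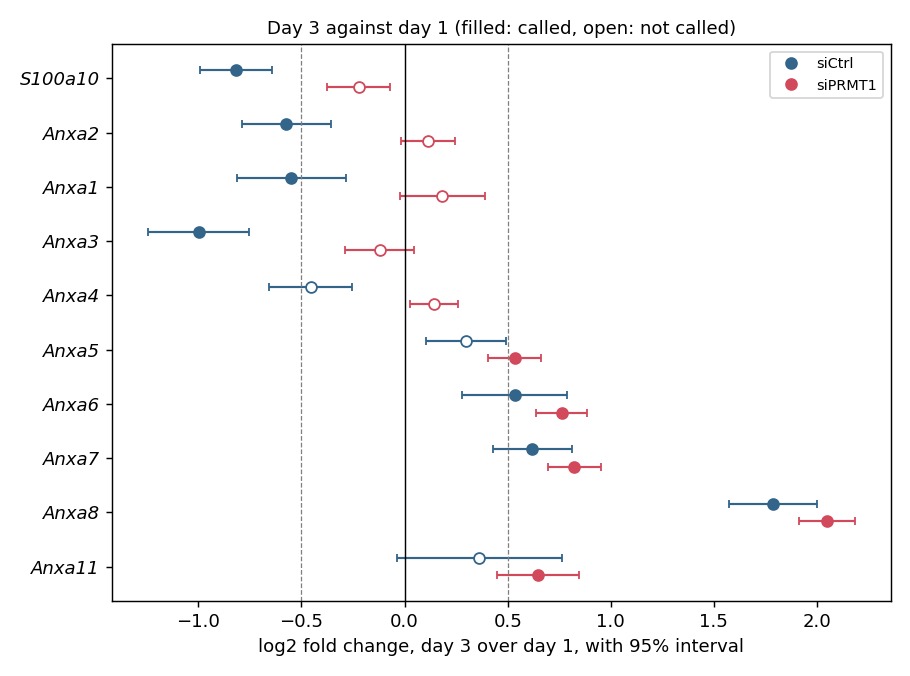
Log2 fold change of day 3 over day 1 for the 10 genes in siCtrl (blue) and siPRMT1 (red), with 95% intervals; filled points passed the call and dashed lines mark 0.5 and -0.5. S100a10, Anxa2, Anxa1 and Anxa3 are called lower in siCtrl and not in siPRMT1, and Anxa8 is the highest point of both series, at 1.79 and 2.05.

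Whether the knockdown difference itself changed between the days was fitted as the interaction of siRNA and day over all 12 libraries. All 10 members had a positive value, with a median of 0.45 beside 0.018 over all 14612 genes tested, so siPRMT1 cells stood higher relative to siCtrl at day 3 than at day 1 by mean. Of the 10, 5 were called higher and 0 lower, where 4.77% of all genes were called higher and 3.47% lower. By unadjusted p alone, 7 members had a positive and 0 a negative value under the same 0.05, again without a computed share of all genes. DESeq2 gave the same counts of calls. Of the genes called, 57.9% were higher with TMM scaling and 42.2% with library totals, while all 10 members stayed positive under both. The 5 members called were Anxa3 at 0.88 (SE 0.13, 95% interval 0.60 to 1.16), Anxa1 at 0.74 (SE 0.17, 95% interval 0.37 to 1.10), Anxa2 at 0.69 (SE 0.12, 95% interval 0.44 to 0.95), Anxa4 at 0.61 (SE 0.10, 95% interval 0.39 to 0.83) and S100a10 at 0.60 (SE 0.11, 95% interval 0.37 to 0.83). Each of the 5 kept its call in all 12 fits with 1 library left out. Without siCtrl replicate 3 of day 1 they were 0.82, 0.77, 0.64, 0.54 and 0.63, while 12.7% of all genes were then called. The paths to these values differed. Anxa2 was lower at day 1 and overlapped with siCtrl at day 3, while Anxa1, Anxa3, Anxa4 and S100a10 were below siCtrl at day 1 and above it by mean at day 3. The other 5 members (Anxa5, Anxa6, Anxa7, Anxa8 and Anxa11) had values between 0.21 and 0.29 and were not called. Without siCtrl replicate 3 of day 1 these 5 lay between 0.014 and 0.16. Positive interaction values were not particular to the members. The 8 preadipocyte and fibroblast markers were all positive, with a median of 0.46, and 3 were called higher. Of 7 adipocyte markers 6 were positive and 1 negative (median 0.37, 0 called). Of 18 membrane repair genes and annexin partners tested, 14 were positive and 4 negative (median 0.25, 1 called higher). The few endothelial, epithelial and muscle markers tested were negative.

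The make-up of annexin transcripts differed between the days. The 9 annexins summed to 1122 ± 41.1 FPKM in siCtrl and 857 ± 18.7 under siPRMT1 at day 1, and to 1208 ± 87.4 and 1237 ± 51.2 at day 3 (SD, n = 3). At day 1 the siPRMT1 sums lay below the siCtrl sums in every library, and at day 3 they overlapped. Anxa2 made up 42.1% ± 0.400 of the sum in siCtrl and 35.4% ± 1.45 under siPRMT1 at day 1, and 27.5% ± 1.80 and 26.8% ± 0.146 at day 3. Anxa8 made up 7.46% ± 0.610 and 6.98% ± 0.307 at day 1, and 25.2% ± 1.36 and 20.3% ± 0.790 at day 3. The share of Anxa8 thus came near that of Anxa2, and it was smaller in every siPRMT1 library than in every siCtrl library at day 3. S100a10 exceeded Anxa2 in every library: the FPKM ratio of S100a10 to Anxa2 was 1.44 ± 0.154 in siCtrl and 1.76 ± 0.131 under siPRMT1 at day 1, and 1.23 ± 0.170 and 1.40 ± 0.0331 at day 3 (SD, n = 3). At day 1 the ratios of the groups did not overlap. Without siCtrl replicate 3 of day 1, the mean of the other 2 siCtrl libraries was 1099.7 FPKM for the annexin sum, 42.2% for the Anxa2 share, 7.11% for the Anxa8 share and 1.53 for the ratio.

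**Figure D4:**
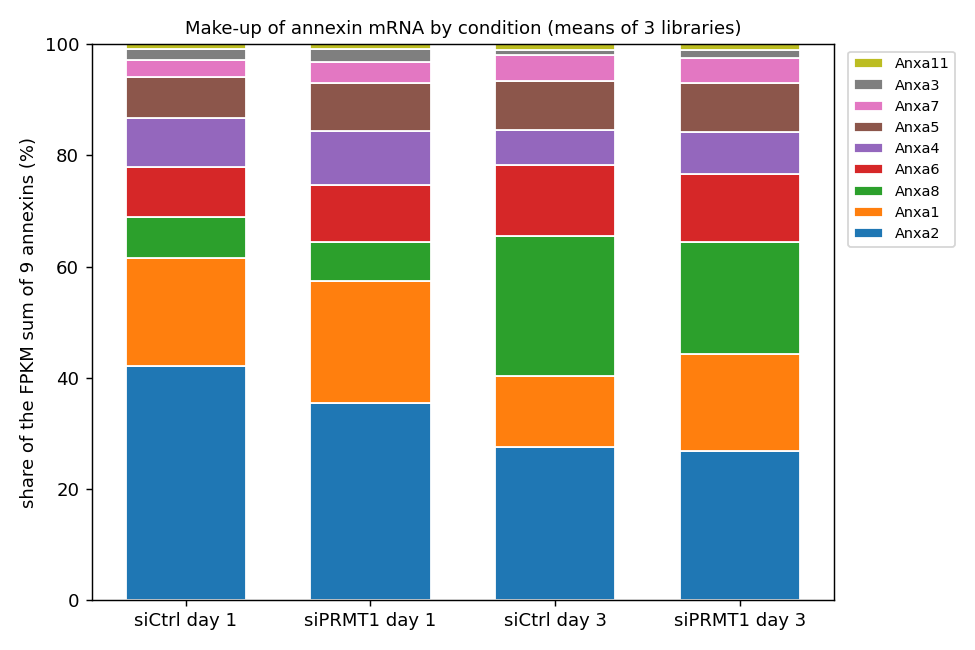
Share of each annexin in the summed FPKM of 9 annexins, as the mean of 3 libraries in each of 4 conditions (stacked bars, percent). Anxa2 (blue) shrinks from 42.1% to 27.5% and Anxa8 (green) grows from 7.46% to 25.2% between the days in siCtrl.

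Other S100 genes encode small calcium-binding proteins, several of which bind annexins. Of 16 listed S100 genes in the table other than S100a10, 10 were tested at day 1 and 11 at day 3. At day 1, 2 were called lower, beside 1.61% of all genes, and at day 3, 3 were, beside 3.80%. Between the days, 8 of 12 tested were called higher and 4 lower in siCtrl cells, beside 22.7% and 20.4% of all genes. In siPRMT1 cells 7 were called higher and 3 lower, beside 19.0% and 17.4%. S100pbp, the gene of an S100P binding protein and no S100 gene itself, was listed with them and is not counted here. S100a4, S100a6 and S100a11, which can bind annexins, were abundant: in siCtrl cells at day 1 they held 546 ± 69.8, 434 ± 51.0 and 501 ± 31.6 FPKM (SD, n = 3). None of them was called in the knockdown at day 1 (-0.37, -0.34 and -0.27) or at day 3 (0.39, 0.15 and 0.23). In the interaction all 3 were called higher, S100a4 at 0.77 (edgeR's adjusted p = 0.0031), S100a6 at 0.51 (adjusted p = 0.015) and S100a11 at 0.52 (adjusted p = 0.017). S100a4 kept its call in all 12 fits with 1 library left out. The other 2 calls lay near the fold threshold: that of S100a6 was lost in 6 of the 12 fits, that of S100a11 in 5, among them the fit without siCtrl replicate 1 of day 1 (0.45 and 0.48), and scaling by library totals lost both, at 0.45 each. Of 12 listed S100 genes tested in the interaction, 4 were called higher and 1 lower, beside 4.77% and 3.47% of all genes.

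The S100 genes called in the knockdown were S100a16 and S100b at day 1 and S100a1, S100a13 and S100a16 at day 3, all lower. S100a1, best known from heart and skeletal muscle, was at 112, 112 and 114 FPKM in siCtrl and 60.2, 62.4 and 62.1 in siPRMT1 at day 3. It fell by 0.88 on the log2 scale (SE 0.071, edgeR's adjusted p = 1.8e-06). S100a13 fell by 0.62 (edgeR's adjusted p = 0.00021) and S100a16 by 0.53 (adjusted p = 0.00048) at day 3, and the S100a16 value was -0.46 and not called without siCtrl replicate 2 of that day. At day 1 S100a16 fell by 0.80 (edgeR's adjusted p = 0.026) and S100b by 1.03 (adjusted p = 0.023) from low levels, and each lost its call in 4 of the 6 fits with 1 library left out. In siCtrl cells S100a1, S100a13, S100a16 and S100b rose between the days, by 3.10, 1.08, 2.03 and 2.03 on the log2 scale (edgeR's adjusted p = 1.1e-08, 6.0e-05, 2.4e-06 and 5.2e-06), whereas S100a4, S100a6 and S100a11 fell, at -1.42, -1.113 and -0.80 (adjusted p = 2.3e-06, 5.8e-06 and 6.5e-05).

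The plasminogen system is the enzyme cascade that the annexin A2 and S100A10 complex serves at the cell surface. Of 12 listed genes, 8 were tested at day 1, 4 with a positive and 4 with a negative log2 fold change. The 2 with an adjusted p under 0.05, Plaur at 0.45 (edgeR's adjusted p = 0.038) and Mmp2 at -0.32 (adjusted p = 0.040), lay inside the fold threshold. At day 3, 4 of 9 tested were called higher, beside 2.84% of all genes. Plat, the gene of tissue plasminogen activator, was at 4.25, 3.39 and 3.79 FPKM in siCtrl and 5.45, 6.15 and 5.27 in siPRMT1 at day 3 and rose by 0.55 on the log2 scale (edgeR's adjusted p = 0.0027). Plau, the gene of urokinase, rose by 0.77 (edgeR's adjusted p = 0.003), Serpine2, a protease inhibitor, by 0.53 (adjusted p = 0.00018) and Mmp2, a matrix metalloproteinase, by 0.61 (adjusted p = 3.3e-05). The call of Plat was lost without siCtrl replicate 2 (0.49) or siPRMT1 replicate 2 (0.49) of day 3, and that of Serpine2 without siCtrl replicate 1 (0.49). Plaur, the urokinase receptor, was at -0.067 at day 3 (edgeR's adjusted p = 0.71). It was called higher at day 1 without siCtrl replicate 3 (0.52) and with scaling by library totals (0.50).

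Membrane repair genes and other annexin partners were listed with 18 genes in the table, of which 17 were tested at each day, 13 of them with a negative log2 fold change at day 1 and 7 at day 3. At day 1, 1 was called lower, beside 1.61% of all genes. This was the protease gene Capn1 at -0.58 (edgeR's adjusted p = 0.016). Its call was lost in 5 of the 6 fits with 1 library left out, among them that without siCtrl replicate 3 (-0.46). At day 3, 2 were called higher, Myof and Ahnak2, beside 2.84% of all genes. Myof, the gene of the membrane repair protein myoferlin, was at 24.8, 23.8 and 23.4 FPKM in siCtrl and 36.5, 37.8 and 37.3 in siPRMT1 and rose by 0.63 on the log2 scale (edgeR's adjusted p = 1.3e-05). Ahnak2 rose by 0.74 (edgeR's adjusted p = 0.00033). Ahnak, the giant scaffold protein bound by annexin A2 and S100A10, was at -0.25 at day 1 and 0.21 at day 3 (edgeR's adjusted p = 0.15 and 0.067) and was not called. Of the phospholipase A2 genes, 6 of 8 were tested, and 1 was called lower at day 1, beside 1.61% of all genes. This was Pla2g16, at -0.69 (edgeR's adjusted p = 0.021). Its call was lost in 5 of the 6 fits with 1 library left out, and at day 3 Pla2g16 was at -0.39 (edgeR's adjusted p = 0.0046). None of the 3 formyl peptide receptor genes, the receptors of annexin A1, passed the filter on low counts.

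**Figure D5:**
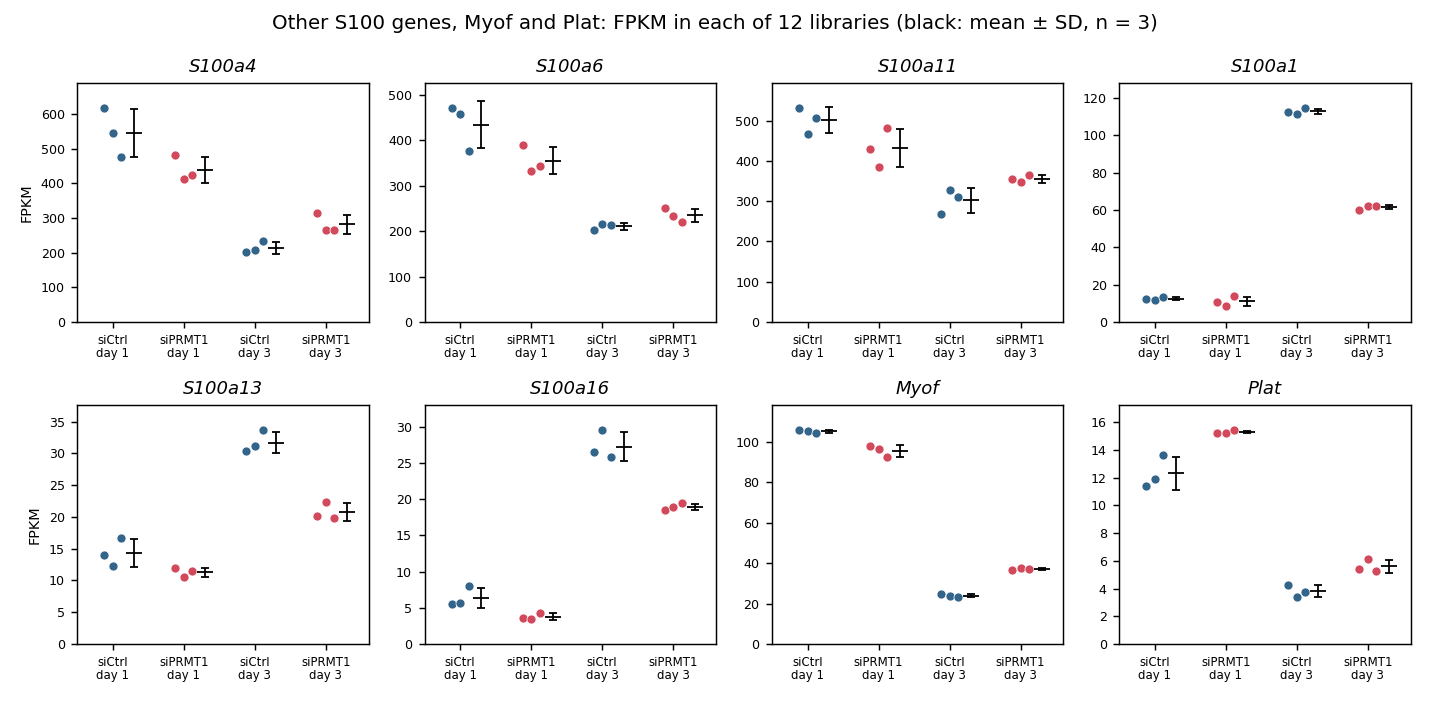
FPKM of 6 other S100 genes, Myof and Plat in each of 12 libraries (points; blue siCtrl, red siPRMT1), with the mean and SD of 3 libraries in black and each y axis from 0. S100a1 is at 112 to 114 FPKM in siCtrl and 60.2 to 62.4 FPKM in siPRMT1 at day 3, while Myof is higher in siPRMT1 than in siCtrl at that day.

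Genes with a pattern like Anxa2 or S100a10 were looked for over the 12 libraries, as the smallest root mean square difference of log2 CPM, each gene centred on its own mean, among 12467 genes. Nearest to Anxa2 were Trappc1 (0.116), Hoxd8 (0.118) and Tcta (0.120). Nearest to S100a10 were Ets1 (0.0584), Adamts5 (0.0592) and Tbcel (0.0744), at smaller distances. The partners were not each other's nearest genes, since S100a10 ranked 439 for Anxa2 and Anxa2 ranked 1349 for S100a10, both at a difference of 0.221. Of the annexins, Anxa4 was nearest to Anxa2 (rank 308) and Anxa3 nearest to S100a10 (rank 1010). The libraries compared are shared by all of these genes, and the measure carries no test.

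Markers of the cell state also differed between the groups. The 7 adipocyte markers summed to 147 to 153 FPKM in siCtrl and 111 to 126 under siPRMT1 at day 1, and to 2695 to 2910 and 2104 to 2288 at day 3. At day 1, 3 of the 6 tested were called lower in siPRMT1 cells (Pparg, Cebpa and Cidec), beside 1.61% of all genes. At day 3, 3 of 7 were (Adipoq, Plin1 and Cidec), beside 3.80%. The 8 preadipocyte and fibroblast markers summed to 1354 to 1404 FPKM in siCtrl and 1279 to 1308 under siPRMT1 at day 1. They summed to 485 to 518 and 596 to 676 at day 3, where 2 of 8 were called higher (Pdgfra and Ly6a), beside 2.84% of all genes. At day 1 both sums were lower in every siPRMT1 library than in every siCtrl library. By gene the preadipocyte and fibroblast markers were mixed at that day, with 3 positive and 5 negative log2 fold changes and 0 called. Thy1, for example, was at means of 76.0 FPKM in siCtrl and 84.5 in siPRMT1. At day 3, 7 of the 8 were positive and 1 negative. Summed adipocyte markers were lower and summed preadipocyte markers higher in every siPRMT1 library at day 3, the day at which Anxa3, Anxa4 and S100a10 were above siCtrl. Their part in the annexin differences was not tested. Most markers of other cell types were low: 4 of 4 endothelial markers, 4 of 5 macrophage markers, 3 of 4 epithelial and 3 of 4 muscle markers had a mean under 1 FPKM in every group. The exceptions were Cd68, a macrophage marker, at 1.40 to 2.14 FPKM, Krt14, an epithelial keratin, and Des, the muscle gene of desmin. Krt14 was at means of 0.053 FPKM in siCtrl and 0.12 under siPRMT1 at day 1, and at 6.27 and 4.85 at day 3. Des was at 0.92 and 0.727 FPKM at day 1 and at 6.45 and 3.80 at day 3. Epcam, Cdh1, Myod1 and Myog were at 0.01 FPKM or less in every group. In the knockdown Lyz2 at day 1 and Cdh5 and Des at day 3 were called lower. The part of these markers in the annexin differences was not tested.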

How the data were processed

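RNA was sequenced from 12 libraries of 3T3-L1 cells, 3 in each of 4 groups set by the labels. The authors filtered reads with cutadapt (version 1.11) and mapped them with HISAT2 (version 2.1.0), and the submitters' processing notes also name RSEM (version 1.2.6) and the build mm10. The deposited counts are whole-number counts per RefSeq gene, made by the authors with a counter, strand setting and treatment of shared reads that are not given in the sources used here. The deposited FPKM values are, per the file headers and the study's methods, the authors' counts scaled to transcript length and mapped reads, and they were used for levels only. Library totals ran from 15116462 to 42357137 counts.

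Counts were tested with edgeR (version 4.0.16, R 4.3.3), using TMM scaling, the filterByExpr filter on low counts, the quasi-likelihood test and Benjamini-Hochberg adjustment over all genes tested. Knockdown comparisons used 6 libraries of 1 day, day comparisons 6 libraries of 1 siRNA, and the interaction all 12. Intervals are 95% and were computed from the fitted value and its test statistic. Log2 fold changes, and the folds given with them, come from TMM-scaled counts, so they can differ from ratios of FPKM means. The test script was checked on simulated data.

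The members and all gene lists were chosen with earlier results of these data known. Named genes were all members, Anxa9, Anxa10 and Anxa13, at most 4 called genes of each other list by the size of their knockdown difference, the partners S100a4, S100a6, S100a11, Ahnak, Plat and Plaur, the 3 genes most like Anxa2 and the 3 most like S100a10, and Prmt1. Called cell type markers are named besides. Likeness used log2 CPM with a prior count of 2 over genes with a mean CPM of at least 1. Alternatives were DESeq2 (version 1.42.0), RLE scaling, no filter, at least 10 counts in every library, no fold threshold, a block for the replicate number, a shared model of all 12 libraries, and fits with each library left out. Scaling by library totals, and all alternatives for genes that are not members, were chosen after seeing the data. Protein identity between members was not analysed here.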

Additional observations from a re-analysis of the deposited data

Results flagged for a closer look

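The knockdown effect of 5 members differed between the days, as the interaction of siRNA and day over 12 libraries gave it. The log2 value at day 3 minus that at day 1 was 0.88 for Anxa3, 0.74 for Anxa1, 0.69 for Anxa2, 0.61 for Anxa4 and 0.60 for S100a10. All 5 were called, beside 4.77% of all genes called in this direction. The members were chosen with their levels known, so these values are a description.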

How the results depend on the processing

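With DESeq2, with RLE scaling, with at least 10 counts in every library and with all 12 libraries in 1 model, every count of members called and every share of all genes called stayed within 1.5 times the value reported. Without a filter on low counts the share of all genes called was 2.36% in the knockdown at day 1 and 4.40% at day 3. Without the fold threshold these shares were 7.60% and 16.5%, and 63.4% between the days in siPRMT1. The members then called were 4 lower at day 1, and 3 higher and 1 lower at day 3. Between the days in siPRMT1 they were 6 higher and 1 lower. Library totals left 1 member called lower at day 1. The cause was not tested, apart from the changed number of genes or the dropped threshold itself.

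With 1 library left out, the share of all genes called ran from 0.893% (without siPRMT1 replicate 3 of day 1) to 6.26% (without siCtrl replicate 3 of day 1) in the knockdown at day 1 and from 5.47% to 12.7% in the interaction for the same libraries. Members called lower at day 1 ran from 1 to 2 and members called higher at day 3 from 1 to 2.

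Values near 0 changed sign. In the knockdown at day 3 the log2 value without a filter was 0.00042 for Anxa2, 0.015 for Anxa7 and 0.0058 for Anxa11, and with library totals 0.0049 for Anxa7. With 1 library left out it ran from -0.087 to 0.10 for Anxa2, -0.023 to 0.069 for Anxa5, -0.048 to 0.056 for Anxa7, -0.085 to 0.068 for Anxa11, -0.069 to 0.15 for S100b and -0.15 to 0.025 for Plaur. In the knockdown at day 1 Serpine2 was 0.026 with library totals and ran from -0.059 to 0.031 with 1 library left out. Between the days in siPRMT1 Ahnak was -0.0014 without a filter and ran from -0.057 to 0.086. The cause was not tested.

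Replicate numbers recur in every group. Deviations from the group means did not correlate over 0.1 in every pair of same-numbered libraries (-0.053, 0.23 and 0.31 in the knockdown at day 1), so the numbers were not taken as pairs. With the replicate block, 3.92% of all genes were called in the knockdown at day 1, 6.94% at day 3, 42.9% and 36.5% between the days in siCtrl and siPRMT1 and 9.17% in the interaction, and the counts of members called were those reported. The lowest count of a member in any library was 260 (Anxa3 in siCtrl replicate 2 of day 3). Depth limits Anxa10 and Anxa13, which had no count.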
